A study of Mus musculus with 3 samples.

Results

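The CXC chemokines are small signalling proteins named for a pair of cysteines with a single residue between them. Transcripts of 9 of their genes, *Cxcl1*, *Cxcl2*, *Cxcl3*, *Cxcl9*, *Cxcl10*, *Cxcl12*, *Cxcl13*, *Cxcl14* and *Cxcl16*, were followed here in leukocytes of the mouse aorta. They were taken by gene symbol from the 32285 genes counted, and all 9 had at least 1 transcript in the cells kept. The cells were CD45+ aortic cells profiled by CITE-seq, in which transcripts and DNA-tagged antibodies bound to the surface are counted in the same cell as unique molecular identifiers (UMIs). They came from 5 *Jak2WT* mice and 5 *Jak2V617F Myel* mice, of which 2 were labelled as aneurysm and 3 as dilation. The design asks whether leukocytes of mutant aortas differ from those of control aortas, and whether they differ with the severity of the aortic disease.

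*Jak2V617F Myel* mice carry a *Jak2V617F* allele that is switched on by Cre recombinase expressed from the LysM promoter, which acts mainly in cells of the myeloid lineage. V617F is a gain-of-function change in the kinase JAK2. LysM-Cre acts in macrophages, monocytes and neutrophils alike, so the model does not single out any of these types. Controls were littermates on the C57BL/6 background, and the age and sex of each of the 10 mice are not given in the sources used here. All mice received an intravenous anti-CD45.2 antibody shortly before sacrifice, and cells that carried it, which had been in the blood, were left out of the sort. The aortas were digested with enzymes in warm medium before labelling and sorting, and all levels below are those after this handling. How far it changed the chemokine transcripts was not tested. Each mouse is named here by the number of its hashtag antibody: mice 1 to 5 were *Jak2WT*, mice 6, 8 and 10 had dilation, and mice 7 and 9 had an aneurysm. The cells of all mice were pooled in 1 droplet run, so no library or sequencing batch separated the groups and no barcodes could be shared between libraries. The pool was sorted to near equal cell numbers per genotype, and cell numbers were therefore not compared between genotypes.

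A CXC chemokine binds a G protein-coupled receptor on a leukocyte and guides that cell toward the place where the chemokine is made. CXCL1, CXCL2 and CXCL3 bind CXCR2 and call neutrophils. CXCL9 and CXCL10 are induced by interferons, bind CXCR3 and call activated T cells and NK cells. CXCL12 holds leukocytes in tissue through CXCR4, CXCL13 organizes B cells through CXCR5, and CXCL16, made as a membrane protein that ADAM10 and ADAM17 release, binds CXCR6. The receptor of CXCL14 is less well established.

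Most of the 9 genes are neighbours in the genome. By the GENCODE vM21 annotation of GRCm38 (mm10), 6 of them lie on chromosome 5: *Cxcl3* (chr5:90786103-90789600), *Cxcl1* (chr5:90891241-90893115), *Cxcl2* (chr5:90903871-90905938) and *Cxcl13* (chr5:95956951-95961068) on the plus strand, and *Cxcl9* (chr5:92321347-92328079) and *Cxcl10* (chr5:92346638-92348889) on the minus strand. *Cxcl12* (chr6:117168535-117181367, plus strand), *Cxcl14* (chr13:56288643-56296551, minus strand) and *Cxcl16* (chr11:70453983-70459984, minus strand) lie apart from them. The annotated transcript numbered 201 has 5 exons in *Cxcl16* and 4 in each of the others.

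The 250 bases before the RefSeq start of transcription are shown for *Cxcl1*, *Cxcl2* and *Cxcl10*, which carried most of the signal below, and for *Cxcl3*, the neighbour of the first pair. They are taken from RefSeq on GRCm38.p6 and read 5′ to 3′ along the strand of the gene. The stretches are chr5:90890995-90891244 (*Cxcl1*, plus strand), chr5:90903649-90903898 (*Cxcl2*, plus strand), chr5:90785851-90786100 (*Cxcl3*, plus strand) and chr5:92348890-92349139 (*Cxcl10*, minus strand). RefSeq and GENCODE do not start *Cxcl1*, *Cxcl2* and *Cxcl3* at the same base. Capitals mark matches to the motifs searched.
Cxcl1: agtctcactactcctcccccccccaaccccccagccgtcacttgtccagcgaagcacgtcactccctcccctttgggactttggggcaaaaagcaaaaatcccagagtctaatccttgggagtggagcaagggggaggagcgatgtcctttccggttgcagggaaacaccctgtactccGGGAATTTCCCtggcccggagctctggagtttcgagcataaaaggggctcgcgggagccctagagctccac
Cxcl2: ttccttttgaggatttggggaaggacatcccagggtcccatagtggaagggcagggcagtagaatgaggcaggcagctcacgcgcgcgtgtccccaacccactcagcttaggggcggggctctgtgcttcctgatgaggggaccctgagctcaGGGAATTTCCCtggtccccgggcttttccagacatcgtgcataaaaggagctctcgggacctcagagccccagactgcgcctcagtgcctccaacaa
Cxcl3: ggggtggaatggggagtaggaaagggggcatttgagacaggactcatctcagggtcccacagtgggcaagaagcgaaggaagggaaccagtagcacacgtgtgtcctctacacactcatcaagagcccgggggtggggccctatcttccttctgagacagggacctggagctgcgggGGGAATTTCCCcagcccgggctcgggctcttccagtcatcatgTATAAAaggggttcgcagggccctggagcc
Cxcl10: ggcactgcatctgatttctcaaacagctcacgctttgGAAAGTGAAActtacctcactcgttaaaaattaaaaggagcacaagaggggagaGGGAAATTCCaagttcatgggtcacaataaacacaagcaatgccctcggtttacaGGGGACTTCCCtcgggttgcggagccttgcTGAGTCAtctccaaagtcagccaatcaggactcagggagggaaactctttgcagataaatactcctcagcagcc
The capitals in *Cxcl1* and *Cxcl2* are matches to the kappa B motif, bound by NF-κB, 71 to 61 and 97 to 87 bases before the start. *Cxcl3* has a kappa B match 73 to 63 bases before the start and a TATA match (TATAAA) 30 to 25 bases before it. These 3 genes share the run GGGAATTTCCC, which holds a pair of overlapping matches. *Cxcl10* has kappa B matches 159 to 150 and 104 to 94 bases before the start, a match to the core of the interferon-stimulated response element (here GAAAGTGAAA) 213 to 204 bases before it, and an AP-1 match (TGANTCA) 74 to 68 bases before it. Both strands were searched, and motifs that read alike on both were counted once.

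Of 32841 promoters of this length, 7.25% held a kappa B match, against 4 of the 8 chemokine genes found in the promoter table. For the interferon core these were 2.98% and 2 genes (*Cxcl10* and *Cxcl14*), for AP-1 6.75% and 1 gene (*Cxcl10*), for TATA 12.4% and 3 genes (*Cxcl3*, *Cxcl9* and *Cxcl13*), and for the gamma-activated site (TTCNNNGAA) 7.02% and 1 gene (*Cxcl14*). A match describes the letters and does not show that a factor binds there.

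Of 8471 barcodes, 5857 carried a single hashtag, and 4871 of these had at most 10% mitochondrial transcripts and were kept, 1780 from *Jak2WT* and 3091 from *Jak2V617F Myel* mice. A mouse gave 112 to 811 cells and 1038443 to 9643994 UMIs in all, with medians of 5441.5 to 10775 UMIs per cell. Clusters were built without any of the 14 CXC ligands counted, so that the chemokines did not define the cells compared, and were named from marker transcripts. The 1775 macrophages comprised 600 resident macrophages, 552 IEG+ macrophages named from immediate-early markers and 499 *Ccr2*+ inflammatory macrophages. They also held 81 IFNIC macrophages led by interferon-induced genes, 27 monocytes, and 16 cells of a cluster left unnamed. T cell genes led this unnamed cluster (*Tcf7*, *Lef1*, *Trbc2*, *Cd3g*, *Trac*). Without these 16 cells, a setting chosen after seeing the data, 0, 0 and 3 chemokines passed in the macrophage comparisons below (genotype, dilation, aneurysm), as with them. Levels are given throughout in CPM, the UMIs of a gene as counts per 1000000 UMIs of the cells summed, a scale that in this 3′ assay does not depend on transcript length. Resident macrophages had a *Lyve1* level of 2280, against 54.4 in the *Ccr2*+ clusters. IEG+ and IFNIC macrophages also held *Lyve1*, at 1230 and 926, and *Mrc1* was 2160 in both resident and IEG+ macrophages. The name resident is thus used here for the 600 cells only and does not cover all macrophages with *Lyve1*. These 600 cells formed a cluster that led the marker lists of Res-MGL1hi and Res-S100hi (350 cells) and another that led the list of Res-Txnip hi (250 cells). Transcripts of other types were found in B cells, as droplets with free RNA would give, and they had a *C1qa* level of 575, against 5220 in macrophages.

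*Cxcl2* gave by far most chemokine UMIs, and the sparse members rested on few cells. *Cxcl2* had 334939 UMIs in 3922 cells (80.5% of cells), *Cxcl1* 22651 UMIs in 1056 cells, *Cxcl10* 11234 UMIs in 931 cells and *Cxcl16* 9900 UMIs in 2005 cells. *Cxcl13* had 2919 UMIs, *Cxcl3* 810, *Cxcl9* 298, *Cxcl14* 294 and *Cxcl12* 288. The 10 highest cells held 81.2% of the *Cxcl9*, 57.1% of the *Cxcl13* and 42.8% of the *Cxcl3* UMIs, but 3.01% of the *Cxcl2* and 3.71% of the *Cxcl16* UMIs. A single cDC2 of mouse 10 held 35.9% of all *Cxcl9*.

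The ligands differed in the cells that held them. Macrophages, 36.4% of the cells, held 69.7% of *Cxcl16*, 61.2% of *Cxcl14*, 59.4% of *Cxcl2*, 47.3% of *Cxcl10*, 44.8% of *Cxcl3* and 42.9% of *Cxcl1* UMIs. *Saa3*+ myeloid cells, 4.27% of the cells, held 84.7% of *Cxcl13*, 45.8% of *Cxcl1* and 24.5% of *Cxcl2* UMIs. *Saa3*, *Prg4*, *Serpinb2* and *Alox15* led the genes of this cluster, with *Adgre1* at 711 and *Lyve1* at 58 CPM. Whether these cells lay in the aortic wall or came with the tissue around it was not tested. The dendritic cells of type cDC2, 8.13% of the cells, held 42.6% of *Cxcl9* and 24.1% of *Cxcl10* UMIs. The 47 cells named non-leukocytes from markers of the vessel wall were 0.965% of the cells and held 35.4% of the UMIs of *Cxcl12*, a chemokine known from stromal cells. Proliferating cells held 22.8% of *Cxcl14* and 22.6% of *Cxcl3*, and neutrophils 12.0% of *Cxcl3*. A single proliferating cell of mouse 9 held 93 of the 183 *Cxcl3* UMIs of its type. These shares varied over mice, and the *Saa3*+ myeloid cells came mostly from mice 5 (78 cells) and 10 (99 cells) and numbered 0 to 13 in each of the others.

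**Figure D1:**
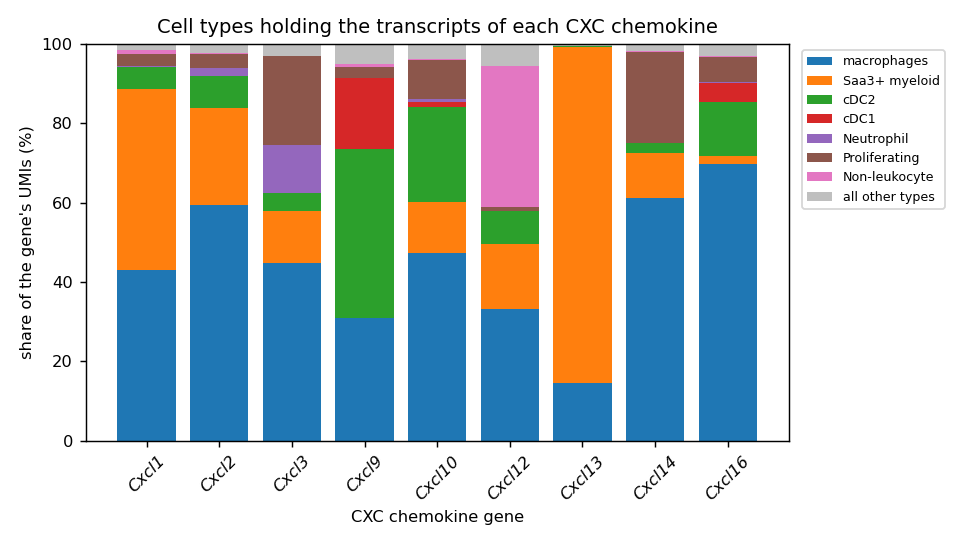
Share of the UMIs of each CXC chemokine (vertical axis, percent) held by each cell type (colours) in the kept cells of all 10 mice; the horizontal axis gives the gene. *Cxcl13* was held mostly by *Saa3*+ myeloid cells (84.7%) and *Cxcl16* mostly by macrophages (69.7%), while non-leukocytes held 35.4% of *Cxcl12*.

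The ligands of CXCR2 had their highest pooled levels in *Saa3*+ myeloid cells (*Cxcl1*, *Cxcl2*) and neutrophils (*Cxcl3*). *Cxcl1* stood at 2455 CPM in *Saa3*+ cells, with 2209, 2607 and 3143 in the 3 mice that gave at least 10 of these cells. The next levels of *Cxcl1*, 696 in *Ccr2*+ inflammatory and 618 in IEG+ macrophages, did not differ beyond the spread between mice (7.28 to 1094 and 257 to 1052). Res-MGL1hi/Res-S100hi macrophages had 223 and Res-Txnip hi macrophages 58.0. *Cxcl2* was 19440 in *Saa3*+ cells (18670 to 24790 over mice), 15350 in IEG+ macrophages (12690 to 19680), 12170 in neutrophils (12650 to 16520 in the mice with at least 10 of them) and 11980 in *Ccr2*+ inflammatory macrophages (9804 to 19010). The ranges of neighbours in this order overlapped. Res-MGL1hi/Res-S100hi macrophages had 4937 (2775 to 6701) and Res-Txnip hi macrophages 1465. *Cxcl3* was 170 in neutrophils, 58.5 in proliferating cells and 49.6 in *Ccr2*+ inflammatory macrophages, with overlapping ranges (28.2 to 676, 0 to 160 and 18.2 to 306).

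The ligands of CXCR3 were highest in IFNIC macrophages and dendritic cells. *Cxcl10* was 611 CPM in IFNIC macrophages (417 to 978 over 4 mice), 492 in IEG+ macrophages (88.6 to 730), 428 in cDC2 (79.9 to 651), 357 in proliferating cells (132 to 752) and 340 in *Saa3*+ cells (131 to 407). *Ccr2*+ inflammatory macrophages had 181 (65.5 to 673) and Res-MGL1hi/Res-S100hi macrophages 178 (50.7 to 297). Neighbours in this order overlapped over mice. *Cxcl9* was 33.5 in cDC1, dendritic cells that present antigen to CD8 T cells (0 to 93.1 over 4 mice), and 20.1 in cDC2, where the single cell of mouse 10 gave most of it.

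Among the other ligands, *Cxcl16* was highest in *Ccr2*+ inflammatory macrophages, with 640 CPM and 488 to 686 over the 5 mice with at least 10 of these cells. It did not overlap the ranges of cDC1 (305 pooled, 189 to 395 over mice), IFNIC (287, 230 to 370) or IEG+ macrophages (251, 180 to 289), which overlapped one another. *Cxcl14* was 23.7 in *Ccr2*+ inflammatory macrophages and 21.4 in proliferating cells. *Cxcl13* was 585 in *Saa3*+ cells (247 to 1211 over 3 mice) and 59.7 in IEG+ macrophages, where mouse 6 had 642 and the others 0 to 17.4. *Cxcl12* was 205 in the non-leukocytes and 12.2 in Res-MGL1hi/Res-S100hi macrophages, the next type.

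**Figure D2:**
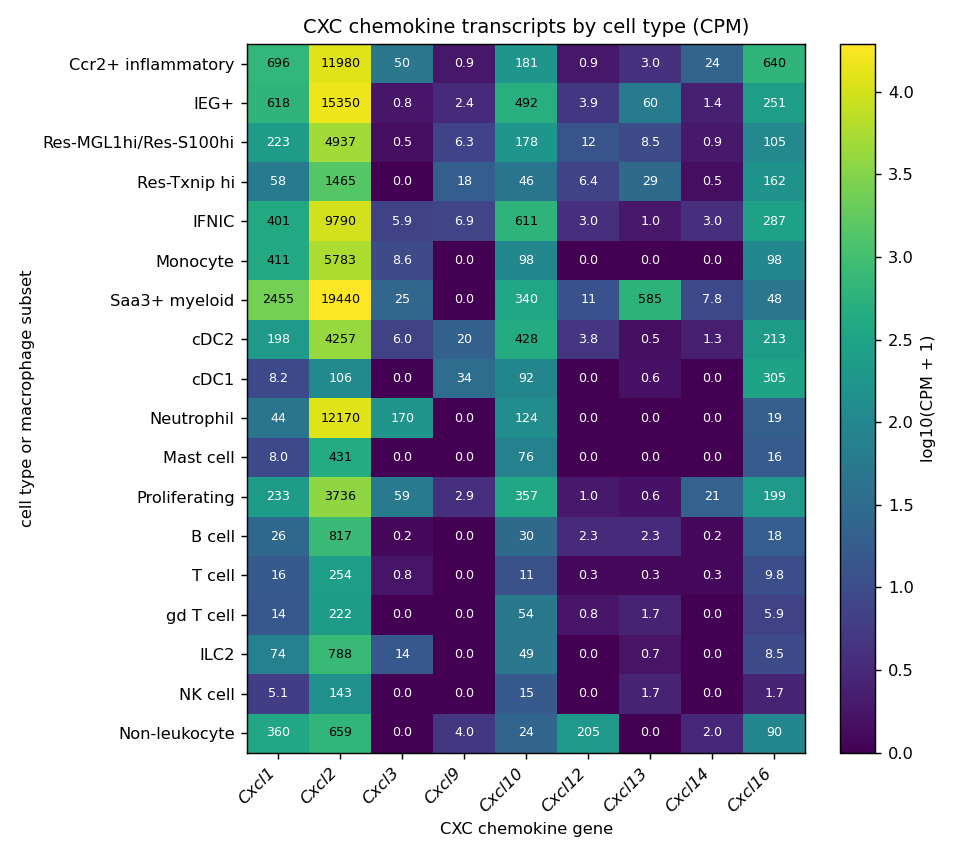
Level of each CXC chemokine (columns) in each cell type or macrophage subset (rows), pooled over the cells of all mice; the printed value is CPM and the colour is log10(CPM + 1). *Cxcl1* and *Cxcl2* were highest in *Saa3*+ myeloid cells (2455 and 19440), *Cxcl10* in IFNIC macrophages (611), and *Cxcl16* in *Ccr2*+ inflammatory macrophages (640).

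Cells differed in depth, so shares of cells with a UMI were taken after thinning each cell to 2000 UMIs. They were set against B cells (median 5622 UMIs before thinning). B cells can make some of these ligands, *Cxcl16* and *Cxcl10* among them, so their share may hold more than free RNA. *Cxcl2* was found in 99.0% of *Saa3*+ cells (median 19897 UMIs), 92.8% of IEG+ (9037), 91.1% of *Ccr2*+ inflammatory (12705) and 62.2% of resident macrophages (10356.5), against 35.0% of B cells. Unthinned, it was found in 100% of *Saa3*+ cells and 66.6% of B cells. *Cxcl1* was found in 55.3% of *Saa3*+, 27.0% of *Ccr2*+ inflammatory and 11.2% of resident cells, against 3.15% of B cells. *Cxcl10* was found in 27.2% of IFNIC (median 12054 UMIs), 27.1% of IEG+, 22.4% of cDC2 (15328) and 9.06% of resident cells, against 1.40% of B cells, and unthinned in 37.7% of IEG+ and 4.18% of B cells. *Cxcl16* was found in 66.1% of *Ccr2*+ inflammatory, 49.4% of cDC1 (18228), 35.4% of IEG+ and 17.3% of resident cells, against 2.98% of B cells, and unthinned in 95.8% of *Ccr2*+ inflammatory and 7.19% of B cells. *Cxcl13* was found in 21.4% of *Saa3*+ cells and 0.350% of B cells. Each of these types thus lay above the share in B cells. Doublets of cells from the same mouse carry 1 hashtag and were not removed.

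Transcripts of the receptors, a list of 8 genes, were held by other types. *Cxcr2* was 549 CPM in neutrophils and at most 1.13 in each other leukocyte type. *Cxcr3* was 82.6 in NK cells, 67.6 in gd T cells and 55.0 in cDC1. *Cxcr6* was 986 in gd T cells, 249 in ILC2 and 51.2 in T cells, and *Cxcr5* was 164 in B cells. *Cxcr4* was found in many types, with 731 in neutrophils, 574 in B cells and 314 in macrophages. *Ackr3*, an atypical receptor that takes up CXCL12, was 231 in non-leukocytes and 85.2 in *Saa3*+ myeloid cells.

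Over all CD45+ cells, no chemokine passed the test between genotypes. UMIs were summed per mouse and tested by edgeR's quasi-likelihood test, with Benjamini-Hochberg adjustment over all genes tested and a threshold of 0.05. The p-values measure the spread between these mice. In such sums, more cells of a type and more RNA per cell cannot be told apart. *Cxcl1* had 139, 132, 219, 73.2 and 705 CPM in mice 1 to 5, 201, 504 and 787 in mice 6, 8 and 10, and 558 and 322 in mice 7 and 9. *Cxcl16* had 128, 164, 76.1, 150 and 74.1 in mice 1 to 5, 162, 107 and 112 in mice 6, 8 and 10, and 340 and 356 in mice 7 and 9. The genotypes overlapped for both, with mouse 5 high in *Cxcl1* and the mice with aneurysm high in *Cxcl16*. In mice 5 and 10, *Saa3*+ myeloid cells were 14.1% and 12.8% of the cells and held 91.6% and 78.9% of the *Cxcl1* UMIs, and with these cells left out, a setting chosen after seeing the data, *Cxcl1* differed by 1.38 on the log2 scale (adjusted p = 0.313 by edgeR).

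Between genotypes, *Cxcl1* differed by 0.87 on the log2 scale (SE 0.59, adjusted p = 0.619 by edgeR), *Cxcl2* by 0.54 (adjusted p = 0.542), *Cxcl10* by 0.42 (adjusted p = 0.62) and *Cxcl16* by 0.89 (adjusted p = 0.462), each higher in mutant mice. None of the 7 chemokines tested passed, and 0% of the 10710 genes tested did, with 1112 genes at an unadjusted p under 0.05 (*Cxcl16* among them) and 56 genes passing by DESeq2. Dilation against *Jak2WT* also gave 0 of 9 chemokines and 0% of 11683 genes, with 597 genes at an unadjusted p under 0.05 and 10 passing by DESeq2. Aneurysm against dilation gave 0 of 9 chemokines (0.12% of genes passed), with *Cxcl16* at a log2 difference of 1.49 (adjusted p = 0.145) although mice 7 and 9 lay above all others.

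*Cxcl10* rose in resident macrophages of *Jak2V617F Myel* mice. Its level was 68.0, 58.5, 67.4, 46.0 and 35.1 CPM in mice 1 to 5 (55.0 ± 14.2, SD, n = 5), 239, 133 and 173 in mice 6, 8 and 10 with dilation, and 184 and 162 in mice 7 and 9 with aneurysm (178 ± 38.9 over the mutant mice, SD, n = 5). All 5 mutant mice lay above all 5 controls. The fold change was 3.30 (nominal 95% interval 2.54 to 4.29, log2 fold change 1.72, SE 0.19, adjusted p = 0.00014 by edgeR). It was the only one of the 4 chemokines tested to pass, where 0.467% of the 6429 genes tested were called higher in mutant mice and 1.49% were higher without overlap. The median log2 fold change was 0.89 over the 4 chemokines and -0.01 over all genes. The call held without any single mouse (log2 fold change 1.55 to 1.83, adjusted p 9.37e-05 to 0.000813) and in all 11 alternative settings (1.62 to 2.07). With the cell highest in *Cxcl10* left out of each mouse, the levels were 16.4 to 52.7 in controls and 79.6 to 150.3 in mutant mice, again without overlap. The control levels rested on 11 to 38 UMIs in 4 to 8 cells of a mouse. The share of resident cells with a *Cxcl10* UMI after thinning did overlap. It was 2.41 to 8.70% in controls and 6.90 to 14.6% in mutant mice.

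The other 3 chemokines tested in resident macrophages did not pass. *Cxcl2* had 2678, 4057, 2541, 962 and 1723 CPM in mice 1 to 5, 4585, 3905 and 3665 in mice 6, 8 and 10, and 5650 and 4858 in mice 7 and 9. Mouse 2 lay within the range of the mutant mice and the other controls below it, and the fold change was 1.91 (1.39 to 2.64, log2 0.94, SE 0.24, adjusted p = 0.0648). *Cxcl2* passed in 6 of 11 alternative settings and without mouse 2 (adjusted p = 0.00505). In mouse 2 the Res-MGL1hi/Res-S100hi cluster was 66.7% of resident macrophages, against 17.5 to 38.6% in the other controls. Within that cluster the log2 fold change of *Cxcl2* was 0.44 (adjusted p = 0.551 by edgeR). In the Res-Txnip hi cluster it was 0.30 (adjusted p = 0.812 by edgeR). The part of the make-up in the difference over resident macrophages was not tested. *Cxcl1* ranged from 18.4 to 346 (median 62.8) in controls and 74.9 to 420 (median 172) in mutant mice, which overlapped (log2 0.85, SE 0.53, adjusted p = 0.586). *Cxcl16* had 117 to 205 in controls and 92.8 to 137 in mutant mice (log2 fold change -0.21, SE 0.16, adjusted p = 0.691). The other 5 members, *Cxcl3*, *Cxcl9*, *Cxcl12*, *Cxcl13* and *Cxcl14*, did not pass the filter on low counts between genotypes in resident macrophages.

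**Figure D3:**
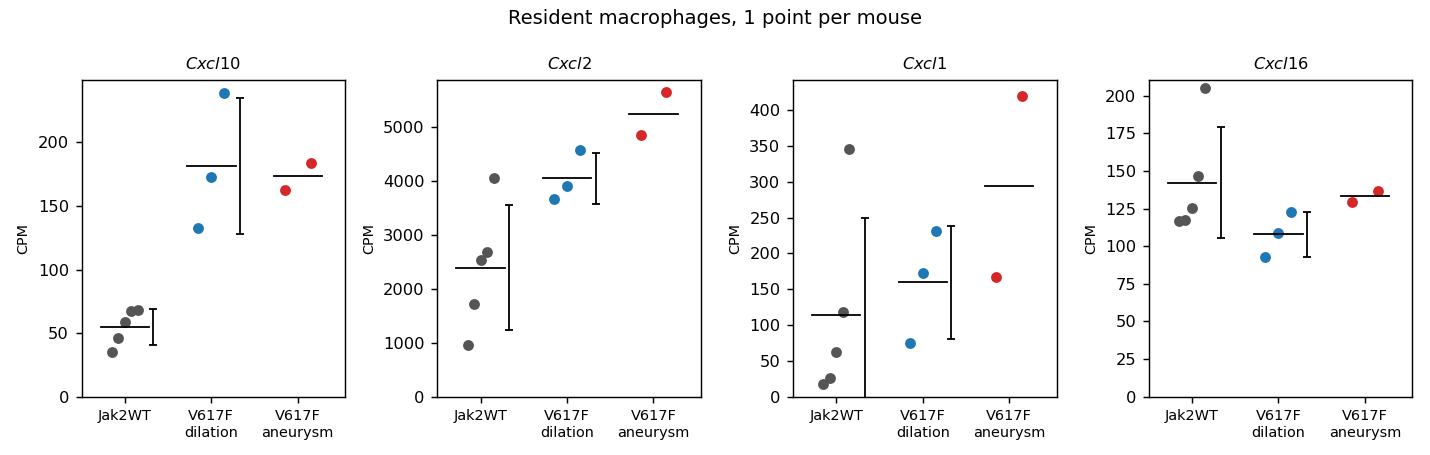
*Cxcl10*, *Cxcl2*, *Cxcl1* and *Cxcl16* in resident macrophages (CPM, linear axes from 0) in *Jak2WT* mice and in *Jak2V617F Myel* mice with dilation or aneurysm; points are mice, lines are group means and bars are SD in groups of at least 3 mice, cut at 0. For *Cxcl10* all 5 mutant mice lie above all controls (178 against 55.0 on average), while the genotypes overlap for the other 3 genes.

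The rise of *Cxcl10* in resident macrophages was already present with dilation. Against *Jak2WT*, dilation gave a log2 fold change of 1.76 (SE 0.22, adjusted p = 0.00079 by edgeR), 1 of 6 chemokines tested, where 0.0403% of genes were called higher. Between aneurysm and dilation the log2 difference of *Cxcl10* was -0.08 (SE 0.23, adjusted p = 0.999), with 173 ± 15.2 (SD, n = 2) against 182 ± 53.6 (SD, n = 3). The call against *Jak2WT* was lost when a cluster of low RNA content, led by macrophage genes, was kept as macrophages (adjusted p = 0.0895 by edgeR). Between aneurysm and dilation, 0 of 6 chemokines and 0% of 7452 genes passed, with 284 genes at an unadjusted p under 0.05 and 1 passing by DESeq2. These comparisons share the mice with dilation.

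Other values were compared between genotypes in resident macrophages. The Res-MGL1hi/Res-S100hi cluster made up 29.6, 66.7, 17.5, 34.8 and 38.6% of resident macrophages in mice 1 to 5, 76.3, 73.7 and 64.7% in mice 6, 8 and 10, and 70.6 and 78.7% in mice 7 and 9. This cluster had 178 *Cxcl10* CPM and the Res-Txnip hi cluster 45.6, and the make-up of the resident cells thus moved with the result, except in control mouse 2. Summed levels of the 13 immediate-early and heat-shock genes were 16410 to 29540 in controls and 24860 to 29750 in mutant mice. The 6 neutrophil markers summed to 27.6 to 46.0 in controls and 27.1 to 32.6 in mutant mice, with 3 to 5 of them detected in a mouse. The 5 IFNIC markers summed to 27.6 to 138 and 35.6 to 75.5, the 8 cDC2 markers to 1007 to 1395 and 1120 to 1297, and the 6 B cell markers to 303 to 398 and 194 to 314. Each of these sums overlapped between genotypes. The part of the make-up and of these lists in the rise of *Cxcl10* was not tested, except that the Res-MGL1hi/Res-S100hi cells were also compared alone, as follows. Of the 16 inducers and regulators, 14 were tested and *Nfkbia*, the NF-κB inhibitor that NF-κB itself induces, rose (875 ± 273 in controls and 1594 ± 258 in mutant mice, SD, n = 5 each, log2 fold change 0.87, SE 0.16, adjusted p = 0.0226 by edgeR), although mice overlapped. *Nfkbia* was not called within either resident cluster. In Res-MGL1hi/Res-S100hi it was 1215 ± 452 in controls (SD, n = 3) and 1837 ± 292 in mutant mice (SD, n = 5). In Res-Txnip hi it was 551 ± 152 and 696 ± 195 (SD, n = 5 each). No gene of the lists of other CXC ligands (1 tested of 6), receptors (1 of 8), proteases (3 of 6) or immediate-early and heat-shock genes (13 of 13) passed.

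Within the Res-MGL1hi/Res-S100hi cluster, *Cxcl10* rose as well. Mice 1, 2 and 5 had 97.3, 75.6 and 50.7 CPM, mice 6, 8 and 10 had 297, 168 and 224, and mice 7 and 9 had 217 and 171. Every mutant mouse lay above every control, and mice 3 and 4, left out of the test with 7 and 8 cells, had 69.8 and 58.5. The share of all genes higher without overlap was not counted in this cluster, so the separation alone is not read as a result. The fold change was 3.01 (2.15 to 4.21, log2 1.59, SE 0.25, adjusted p = 0.0178 by edgeR), 1 of 4 chemokines tested, where 0.0652% of genes were called higher. The call rested on few controls and was lost without mouse 2 or mouse 5 (adjusted p up to 0.0736) and with cells thinned to 2000 UMIs (adjusted p = 0.227), at log2 fold changes of 1.63, 1.38 and 2.01. The 5 IFNIC markers moved with genotype in these cells, from 25.6 to 34.9 in controls to 42.9 to 94.0 in mutant mice, and their part in the result was not tested.

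*Cxcl10* in the Res-Txnip hi cluster was too sparse to be tested between genotypes. Mice 1 to 5 had 52.3, 8.47, 66.8, 36.6 and 21.7 CPM, mice 6, 8 and 10 had 7.70, 0 and 52.5, and mice 7 and 9 had 38.6 and 127. The genotypes overlapped throughout, and mouse 8 had 0 UMIs where 3 UMIs would have been 22.3 CPM. Of the 3 chemokines tested there, *Cxcl1*, *Cxcl2* and *Cxcl16*, none passed, and 0.0397% of genes did.

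In IEG+ macrophages *Cxcl10* passed the test, but the call depended on the mice included. Mice 1, 2, 3 and 5 had 310, 88.6, 232 and 328 CPM, mice 6, 8 and 10 had 598, 602 and 572, and mice 7 and 9 had 730 and 364. Each mutant mouse lay above these controls, with a fold change of 2.32 (1.61 to 3.35, log2 1.22, SE 0.27, adjusted p = 0.0427 by edgeR), 1 of 4 chemokines tested, where 0.588% of genes were called higher. For IEG+ macrophages the share of all genes higher without overlap was not counted, so separation of the mice alone is not read as a result. Mouse 4, a control left out because it gave 7 such cells, had 3478, with 150 of its 221 UMIs in 1 cell (1248 without that cell). With mouse 4 in the test the log2 fold change was -0.31 (adjusted p = 0.926). Leaving out single mice kept the call in 3 of 9 fits and lost it without mice 1, 2, 3, 7, 8 or 10. The share of IEG+ cells with a *Cxcl10* UMI after thinning was 12.5 to 30.0% in mice 1, 2, 3 and 5 and 29.4 to 34.0% in the mutant mice. IEG+ macrophages pooled a cluster of 374 cells, with *Cxcl10* at 448 CPM, and another of 178 cells, with 655. The part of the mix of these clusters in the changes of IEG+ macrophages was not tested.

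Beside *Cxcl10*, the IEG+ macrophages changed in *Cxcr4*, the CXCL12 receptor, and in immediate-early genes. *Cxcr4* rose from 227 ± 67.0 (SD, n = 4) to 413 ± 78.8 (SD, n = 5) CPM, a log2 fold change of 0.79 (SE 0.18, adjusted p = 0.0442 by edgeR). The mice did not overlap, which alone is not read as a result in these cells. Mouse 4 was left out here as well, and how far the *Cxcr4* call depends on the mice included is not given. Among the 13 immediate-early and heat-shock genes, *Egr1*, *Egr2*, *Egr3*, *Ier2* and *Dnajb1* fell, with log2 fold changes of -0.49, -0.75, -1.07, -0.73 and -0.79. These were 5 of the 13, where 0.437% of genes were called lower, and mice of the 2 genotypes overlapped for *Egr2* and *Egr3*. *Egr1* is among the markers that named the IEG+ cells, and immediate-early genes were not kept out of the clustering. These falls are thus not independent of how the cells were selected. *Cxcl1*, *Cxcl2* and *Cxcl16* did not pass, at log2 fold changes of 0.68, -0.13 and 0.11.

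**Figure D4:**
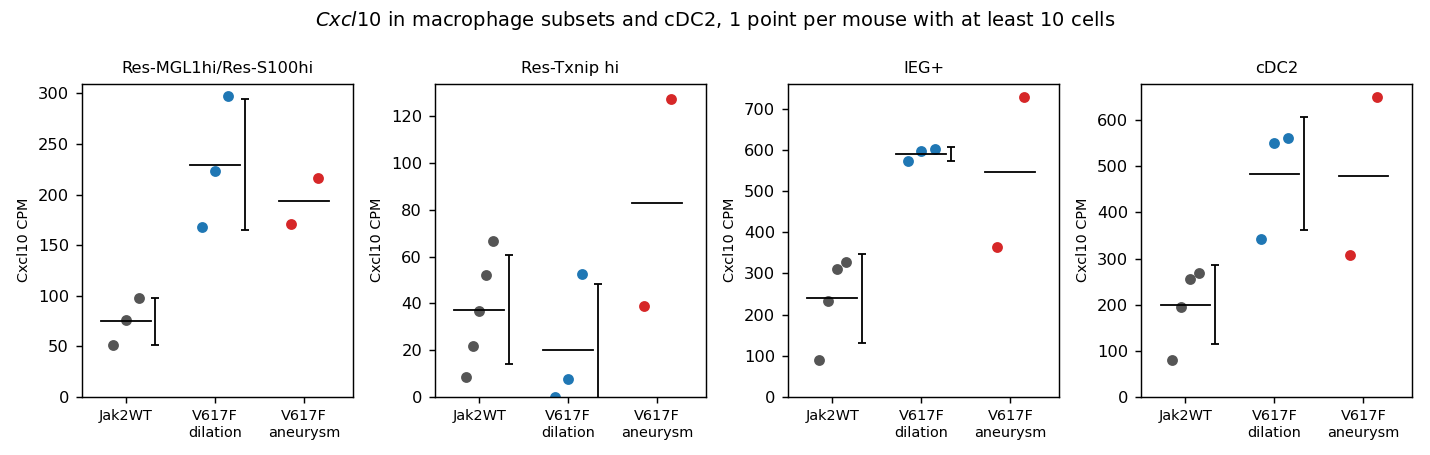
*Cxcl10* (CPM, linear axes from 0) by mouse in Res-MGL1hi/Res-S100hi, Res-Txnip hi and IEG+ macrophages and in cDC2, for mice with at least 10 cells; lines are group means and bars are SD in groups of at least 3 mice, cut at 0. Mutant mice lie above the controls shown in Res-MGL1hi/Res-S100hi and IEG+ macrophages and in cDC2, where *Cxcl10* did not pass the test, and overlap them in Res-Txnip hi macrophages.

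The dendritic cells of type cDC2 had higher summed *Cxcl1*, *Cxcl2* and *Cxcl10* in the 5 mutant mice than in the 4 controls with at least 10 cells, but none of these passed the test, and single cells held much of some sums. *Cxcl1* had 58.2, 17.0, 34.2 and 113 CPM in mice 1, 2, 4 and 5, 223, 244 and 399 in mice 6, 8 and 10, and 192 and 169 in mice 7 and 9 (log2 fold change 2.05, SE 0.41, adjusted p = 0.102 by edgeR). Of these *Cxcl1* UMIs, 1 cell held 78 of 90 in mouse 6, 164 of 338 in mouse 10 and 30 of 31 in control mouse 5. *Cxcl10* had 195, 268, 79.9 and 256 in the controls, 342, 562 and 550 with dilation, and 307 and 651 with aneurysm (log2 1.18, SE 0.31, adjusted p = 0.233). In mouse 9, which had the highest *Cxcl10*, 1 cell held 559 of 961 UMIs. *Cxcl2* had 3249, 2075, 2784 and 1208 in the controls, 3977, 6949 and 5485 with dilation, and 4582 and 3392 with aneurysm (log2 1.04, SE 0.25, adjusted p = 0.183). These were 3 of 4 chemokines tested whose groups did not overlap, where 2.48% of genes were higher without overlap, and 0 of 4 passed where 0.0227% of genes did. *Cxcl16* overlapped (log2 0.87, adjusted p = 0.727). Mouse 3, left out with 7 cells, had 105, 5205 and 142 for *Cxcl1*, *Cxcl2* and *Cxcl10* and lay within the mutant range for *Cxcl2*. With the highest cell of each mouse left out, *Cxcl1* was 0 to 18.7 in the 4 controls and 30.7 to 212 in the mutant mice, and *Cxcl10* was 12.3 to 189 and 231 to 486.

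The only gene that passed between genotypes in cDC2 was another CXC ligand, *Pf4* (*Cxcl4*), which platelets and resident macrophages make. It rose from 53.3 ± 17.7 (SD, n = 4) to 399 ± 80.2 (SD, n = 5) CPM, a fold change of 7.16 (5.21 to 9.84, log2 2.84, SE 0.23, adjusted p = 6.32e-05 by edgeR). In B cells *Pf4* was 262 ± 79.6 (SD, n = 4) in controls and 256 ± 149 (SD, n = 5) in mutant mice. The 13 markers of macrophages and resident macrophages moved with genotype in the cDC2, from 1124 to 2627 in controls to 2864 to 6358 in mutant mice, and so did the 5 IFNIC markers, from 37.4 to 175 to 213 to 676. In cDC2 without a *Lyve1* UMI, a setting chosen after seeing the data, the log2 fold change of *Pf4* was 2.37 (adjusted p = 3e-04). The *Ccr2*+ inflammatory macrophages, low in *Lyve1*, also held *Pf4*, at 1215 ± 135 CPM in mutant mice (SD, n = 4). That setting thus cannot remove RNA of such macrophages, and the source of the *Pf4* in cDC2 was not tested. The call of *Pf4* was lost with MULTIseqDemux (adjusted p = 0.0649).

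In all macrophages, no chemokine passed between genotypes. *Cxcl1* had 178, 251, 536, 121 and 107 CPM in mice 1 to 5, 196, 530 and 350 in mice 6, 8 and 10, and 960 and 434 in mice 7 and 9. The genotypes overlapped, and the log2 fold change was 1.11 (SE 0.46, adjusted p = 0.359 by edgeR). *Cxcl10*, which rose in resident macrophages, had a log2 fold change of 0.17 over all macrophages (adjusted p = 0.928), and mouse 4, with its 7 IEG+ cells, had the highest level (734). *Cxcl16* had a log2 fold change of 0.57 (adjusted p = 0.421) and passed in the fit of the 3 groups (adjusted p = 0.0382). None of 4 chemokines tested passed, and 0% of 8189 genes did, with 1012 genes (*Cxcl1* among them) at an unadjusted p under 0.05 and 56 passing by DESeq2. Dilation against *Jak2WT* gave 0 of 8 chemokines, where 0.0221% of genes passed, and *Cxcl16* differed by -0.06 on the log2 scale (adjusted p = 0.971).

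Aneurysm differed from dilation in the macrophages as a whole, with *Cxcl16* higher. *Cxcl14* and *Cxcl3* were also called higher, but they entered the test through the mice with aneurysm. *Cxcl16* had 218, 184 and 228 CPM in mice 6, 8 and 10 with dilation (210 ± 23.1, SD, n = 3) and 472 and 480 in mice 7 and 9 with aneurysm (476 ± 6.22, SD, n = 2), against 223 ± 45.1 in *Jak2WT* mice (SD, n = 5). The groups did not overlap. The fold change of *Cxcl16* was 2.38 (1.84 to 3.07, log2 1.25, SE 0.19, adjusted p = 0.000779 by edgeR). With any single mouse left out the log2 fold change was 1.16 to 1.32. Leaving out mouse 7 or 9 left a single mouse with aneurysm, so those fits have no replicate in that group.

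*Cxcl14* had 5.15, 0 and 3.27 CPM with dilation and 12.3 and 18.1 with aneurysm. It was higher in both mice with aneurysm than in any other mouse. Between aneurysm and dilation it rose by 2.45 on the log2 scale (SE 0.52, adjusted p = 0.00832 by edgeR). The call was lost without mouse 9, which left only mouse 7 with aneurysm. *Cxcl3* had 2.94, 0 and 2.18 with dilation and 34.0 and 28.3 with aneurysm (log2 4.13, SE 1.13, adjusted p = 0.0316), from 152 UMIs in 25 cells of mouse 7 and 153 UMIs in 28 cells of mouse 9. Its call was lost without any one of mice 6 to 10 and with MULTIseqDemux (log2 2.29, adjusted p = 0.0959). In control mouse 2, *Cxcl3* stood at 43.0, above both mice with aneurysm, with 41 of its 48 UMIs in 1 cell.

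These were 3 of the 8 chemokines tested, all higher without overlap, where 5.94% of 9036 genes were called higher and 17.3% were higher without overlap. The filter on low counts follows the smallest group, here the mice with aneurysm. *Cxcl14* and *Cxcl3* passed it through their levels in those mice, with control mouse 2 also high in *Cxcl3*, and neither was tested between genotypes. Their part in this count is therefore not read as a result. The median log2 difference was 0.66 over the 8 chemokines and 0.00 over all genes. *Cxcl1* (log2 1.04, adjusted p = 0.265), *Cxcl2* (0.28, 0.581), *Cxcl10* (-0.66, 0.546), *Cxcl12* (-1.25, 0.244) and *Cxcl13* (-5.03, 0.0923) did not pass, and *Cxcl13* stood at 227 in mouse 6, with 281 of 309 UMIs in 1 cell.

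**Figure D5:**
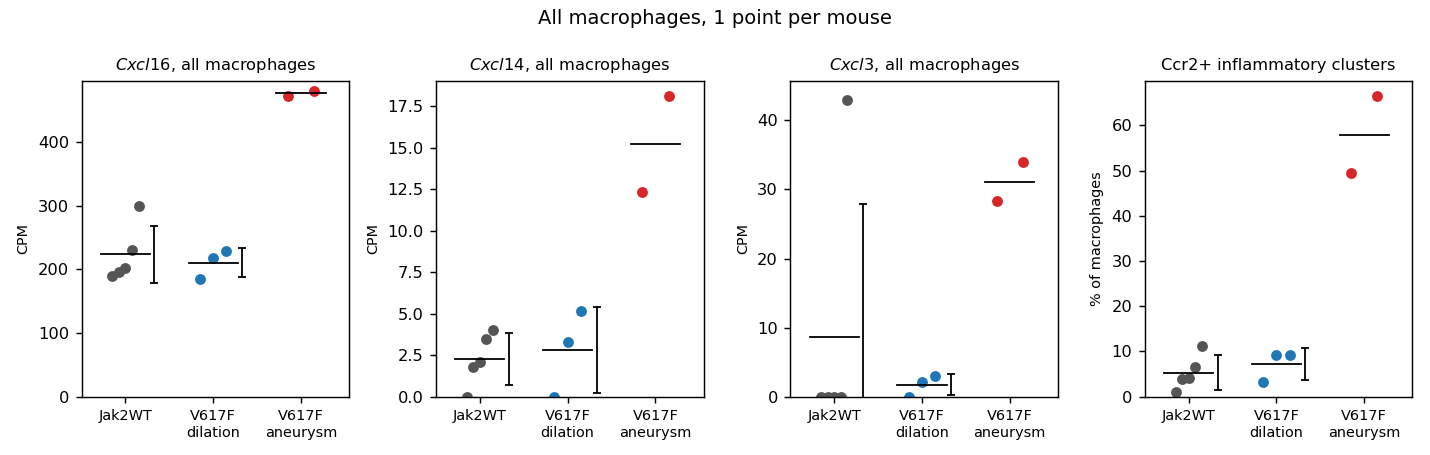
*Cxcl16*, *Cxcl14* and *Cxcl3* in all macrophages (CPM) and the share of *Ccr2*+ inflammatory clusters among macrophages (percent), on linear axes from 0, in *Jak2WT* mice and in *Jak2V617F Myel* mice with dilation or aneurysm; points are mice, lines are group means and bars are SD in groups of at least 3 mice, cut at 0. Both mice with aneurysm lie above all other mice in *Cxcl16* (476 against 210 with dilation) and *Cxcl14*, control mouse 2 lies above them in *Cxcl3*, and the *Ccr2*+ share is 49.4 and 66.5% with aneurysm and at most 11.2% elsewhere.

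The make-up of the macrophages moved with aneurysm. *Ccr2*+ inflammatory clusters were 66.5% and 49.4% of the macrophages of mice 7 and 9, against 9.23, 3.17 and 9.24% in mice 6, 8 and 10 and 0.952 to 11.2% in controls. Within these clusters *Cxcl16* was 610 and 686 CPM in mice 7 and 9 (242 and 191 cells), 618 and 563 in mice 6 and 10 (12 and 23 cells) and 488 in control mouse 2 (13 cells). Without these clusters, a setting chosen after seeing the data, 0 of the chemokines passed, and *Cxcl16* differed by 0.05 on the log2 scale (adjusted p = 1).

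The larger of the *Ccr2*+ clusters (325 cells) had 719 *Cxcl16*, 64.7 *Cxcl3* and 28.8 *Cxcl14* CPM, and the smaller (174 cells) had 408 *Cxcl16* and 5.11 *Cxcl3*. *Cxcl10* was higher in the smaller cluster (313) than in the larger (136). The sum of the 13 immediate-early and heat-shock genes also moved, from 31340 to 34160 with dilation to 18660 to 19820 with aneurysm.

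Genes that induce, shed or receive the chemokines were described in the same macrophages. Many genes changed in this comparison, with 5.94% of those tested called higher and 4.14% called lower, and the counts below stand beside these shares. Without the *Ccr2*+ inflammatory clusters no gene passed. IEG+ macrophages were 34.6, 46 and 44.2% of the macrophages of mice 6, 8 and 10 and 15.4 and 21.7% in mice 7 and 9. *Il1b* is among the markers that named the *Ccr2*+ clusters and *Jun* among those of IEG+, so neither change is independent of the make-up. Of 14 inducers and regulators tested, 6 rose with aneurysm: *Il1b*, a cytokine that induces CXCR2 ligands (log2 2.51), *Tnf* (0.95), the NF-κB subunits *Nfkb1* (0.91) and *Rel* (1.10), and the receptor chains *Il17ra* and *Ifngr2* (0.79). Of 5 proteases tested, *Adam17* (log2 0.92), whose protein releases CXCL16 as ADAM10 does, and *Mmp12* (2.58) rose and *Mmp9* fell by 1.73 on the log2 scale. *Adam10* was not among the genes that passed. *Pf4*, 1 of 2 other CXC ligands tested, fell by 0.67. *Jun*, *Ier2*, *Atf3*, *Hspa1a* and *Hspa1b* fell, 5 of the 13 immediate-early and heat-shock genes, with log2 differences from -1.35 to -0.71, and the 1 receptor tested did not pass.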

How the data were processed

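Transcripts, surface antibodies and hashtags of aortic CD45+ cells were counted together in 1 pool of 10 mice. The deposited values are raw counts of UMIs per feature and cell, which the authors made with Cell Ranger on mm10, and the submitters' processing notes also name Seurat 3.0.0. From these counts, mice were assigned by HTODemux (positive quantile 0.99) in Seurat 5.3.0 with R 4.3.3 and Matrix 1.6.5, by the hashtag numbers that the submitters' protocol gives to each mouse. Of 8471 barcodes, 2265 carried several hashtags and 349 none, and both were left out, as were cells over 10% mitochondrial transcripts.

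Cells were clustered on 2000 variable genes without the CXC ligands (20 principal components, 20 neighbors, resolution 0.3, and 0.8 with 100 random starts within macrophages). Clusters were named from marker lists, without *Cxcl13*, where at least 3 markers were found in 10% of cells and the score reached 0.5 (0.3 for subsets). A low-RNA cluster of 337 cells (median 1746 UMIs, *Hbb-bs* at 46700 CPM) scored highest for the erythrocyte list while macrophage genes led it. It stayed unnamed and counted only among all CD45+ cells, and an alternative setting kept it as macrophages. No cluster within the macrophages had a median under their median UMI count divided by 3, so none was removed. Counts were summed per mouse (at least 10 cells, at least 3 mice per genotype, or 2 per group where the 3 groups were fitted together) and tested with edgeR 4.0.16 (quasi-likelihood, TMM, Benjamini-Hochberg over all genes tested, threshold 0.05). The genotype test had no covariate, and dilation and aneurysm came from 1 fit of the 3 groups. Where a mouse was left out, the lowest numbers of mice were not applied again. DESeq2 1.42.0 was an alternative, with other scalings, filters, mitochondrial limits, demultiplexing, clustering, thinning to 2000 UMIs, leaving out single mice, and 5 settings added after seeing the data.

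The chemokines and gene lists were chosen with earlier results of these data known. Named are the 9 chemokines, at most 6 genes of a list that passed in a comparison, by smallest p, and for each chemokine the 3 genes most like it over cell types. *Cxcl11*, 1 gene of the lists, was not in the feature table. Intervals of fold changes are nominal 95% intervals from a normal approximation, with SEs derived from the test statistic. With few mice they are narrower than the test itself allows. For *Cxcl2* between genotypes in macrophages the interval was 1.01 to 1.79 at an unadjusted p of 0.0614 by edgeR. The floor of a count of 0 was 3 counts, which covers counting error only. On simulated data the genotype test in resident macrophages recovered 83.9% of genes changed by 1 on the log2 scale. It recovered 100% of those changed by 2. The aneurysm test in macrophages recovered 73.7% and 98%. Each of these tests also called 9 genes that had been left unchanged. At a log2 change of 1, the genotype test in all CD45+ cells recovered 63%. The aneurysm test recovered 17.2% in all CD45+ cells and 51% in resident macrophages, so a gene without a call there may still differ. The simulation gave each gene the spread common to genes of its level, so the shares do not cover genes that vary more between mice. These shares are over genes at large, and recovery for the 9 chemokines separately was not tested.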

Additional observations from a re-analysis of the deposited data

Results flagged for a closer look

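A mouse far from the rest of its group was found in 11 of 53 groups of mice examined, by the gap to the nearest mouse over the range of the group. Chance alone gives about 1 in 20 for values that vary smoothly. Where all other mice are at 0, any mouse with a UMI is flagged, so the number of flags does not show an excess. Each value is in CPM (counts scaled to a common total). Over all CD45+ cells, control mouse 5 had 705 for *Cxcl1* (73.2 to 219 in the other controls) and 74.8 for *Cxcl13* (15.6 to 25.4), and *Saa3*+ myeloid cells were 14.1% of its cells. Control mouse 1 had 28.7 for *Cxcl9* over all CD45+ cells (0 to 3.88 in the others), 65.2 in macrophages and 98.5 in resident macrophages, where the other controls were at 0, and its 65 macrophage UMIs lay in 4 cells. In resident macrophages *Cxcl9* was 10.3 in mouse 10 with dilation and 0 in the other mutant mice.

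*Cxcl3* was 43.0 in the macrophages of control mouse 2 and 0 in the other controls. *Cxcl13* was 227 in the macrophages of mouse 6 with dilation (0.672 to 3.14 in the other mutant mice), with 281 of 309 UMIs in 1 cell. In resident macrophages *Cxcl13* was 43.5 in mouse 6 (0 to 4.30 in the other mutant mice) and 166 in control mouse 3 (0 to 11.7 in the other controls), with 52 of the 54 UMIs of mouse 3 in 1 cell. *Cxcl14* was 2.17 in the resident macrophages of control mouse 2, the level of 1 UMI, and 0 in the other controls.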

How the results depend on the processing

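No paired analysis was possible because the hashtag numbers name single mice and the groups share no number. Counts of chemokines that passed are given as reported and then under the settings that changed them, with the share of all genes that passed in that setting in parentheses. Without a filter on low counts, the number went from 1 to 5 (2.15%) between genotypes in resident macrophages, from 0 to 6 (1.4%) for dilation against *Jak2WT* in macrophages, from 1 to 3 (1.3%) for it in resident macrophages, from 3 to 7 (7.65%) for aneurysm against dilation in macrophages, from 0 to 2 (0.286%) for it in resident macrophages, and between genotypes to 3 (0.564%) in Res-MGL1hi/Res-S100hi, 2 (0.431%) in Res-Txnip hi, 3 (1.43%) in IEG+ and 3 (0.577%) in cDC2. Between genotypes in resident macrophages, 2 passed with a 5% mitochondrial limit (2.18%), MULTIseqDemux (3.39%), CXC ligands among the clustering genes (2.09%), low-RNA macrophages kept (0.798%), or the highest cell of each mouse set to 0 (0.718%, added after seeing the data). For dilation in resident macrophages, 2 passed with MULTIseqDemux (1.24%) or CXC ligands among the clustering genes (0.332%) and 0 with low-RNA macrophages kept (0.0259%). DESeq2 called 2 (1.43%) for aneurysm against dilation in all CD45+ cells and 3 (0.849%) in cDC2, where 2 (0.091%) passed with the highest cell of each mouse set to 0. The fit of the 3 groups called 1 (3.17%) between genotypes in macrophages. In Res-MGL1hi/Res-S100hi 0 passed with thinned cells (0.0762%), in IEG+ 0 with thinned cells (1.13%), MULTIseqDemux (0.126%) or sums of at least 1 cell (0.28%), and in macrophages 0 for aneurysm without the *Ccr2*+ inflammatory clusters (0%, added). *Cxcl10* in IEG+ reversed to -0.308 on the log2 scale with sums of at least 1 cell. Leaving out single mice gave 1 to 3 chemokines between genotypes in resident macrophages (0.0606 to 2.04% of genes, and 3 chemokines without mouse 2), 1 to 2 for dilation there (0.0249 to 0.702%), 0 to 1 in Res-MGL1hi/Res-S100hi (0.0331 to 0.122%), 0 to 1 in IEG+ (0.107 to 1.13%) and 0 to 1 in cDC2 (0.0187 to 0.342%). For aneurysm in macrophages such counts are not given, since leaving out mouse 7 or 9 left a single mouse in that group.

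Counts of all genes that passed moved more: from 46 to between 12 (thinned cells) and 323 (no filter) between genotypes in resident macrophages, from 537 higher and 374 lower to 0 without the *Ccr2*+ clusters for aneurysm in macrophages, from 0 to 286 between genotypes in macrophages by the fit of the 3 groups, from 54 to between 5 and 208 in IEG+, and from 1 to between 0 and 85 in cDC2. The cause of these moves was not tested. DESeq2 gave no adjusted p for *Cxcl3* between aneurysm and dilation in macrophages. The Res-MGL1hi/Res-S100hi comparison gave no value with MULTIseqDemux or with CXC ligands among the clustering genes, since no such cluster formed. Depth limits *Cxcl3*, *Cxcl9*, *Cxcl12*, *Cxcl13* and *Cxcl14*, which rest on at most 160 cells each.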

Other observations

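The antibody panel held CXCR4, CXCR5 and CD26, a protease that trims CXC chemokines. Mean antibody counts per cell were compared between genotypes over mice by a two-sided exact permutation test, whose smallest p with 5 against 5 mice is 0.00794. CXCR4 on resident macrophages was 0.326 ± 0.136 in controls and 0.642 ± 0.151 in mutant mice (SD, n = 5 each, exact permutation p = 0.0238, adjusted p = 0.131), and CD26 was 0.246 ± 0.0644 and 0.522 ± 0.270 (exact permutation p = 0.00794, adjusted p = 0.131). None of the 33 tests passed after adjustment. Isotype controls, which bind no target, moved the same way in resident macrophages, with Rat_IgG1 at 0.245 and 0.522 counts per cell, and all antibodies together stood at 1582 and 2040 counts per cell.

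The genes most like each chemokine over 19 cell types and macrophage subsets are given by Pearson's r of log2 levels, as a description over types that share 1 library. *Cxcl16* was most like *Rab7b* (0.957), *Pid1* (0.937) and *Cttnbp2nl* (0.936), and *Cxcl13* most like *Cd5l* (0.953), *Prg4* (0.94) and *Fabp7* (0.925). *Cxcl2* was most like *C5ar1* (0.91), *Tlr2* (0.895) and *Cd300ld* (0.895), and *Cxcl1* most like *Ggh* (0.881), *Cryl1* (0.869) and *Dock1* (0.86). *Cxcl10* was most like *Cysltr1* (0.882), *Ncln* (0.881) and *Pacs2* (0.879), and *Cxcl9* most like *Tlr3* (0.916), *Sept3* (0.87) and *Ifi205* (0.839). *Cxcl12* was most like *Cdkn1c* (0.922), *Hspb1* (0.92) and *Fmo2* (0.906), *Cxcl14* most like *Nes* (0.897), *Mmp12* (0.808) and *Mmp14* (0.744), and *Cxcl3* most like *AA467197* (0.858), *Slc7a11* (0.775) and *Il1rn* (0.769).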
